A study of Mus musculus with 8 samples.

Results

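Antioxidant and glutathione enzymes were followed in mouse gastrocnemius, the large calf muscle, through 10 genes: Gpx1, Gpx3, Gpx4, Cat, Sod1, Sod2, Gclc, Gclm, Nqo1 and Txnip. The members were every probe set of the Affymetrix array that the platform annotation assigns to 1 of these genes and to no other. There were 22 such probe sets among 45037 that are not array controls, and 3 of the genes had a single one. Each of 8 samples was hybridised to 1 array. The 4 control samples were labelled wild type. The other 4 were labelled GR KO, a disruption of the glucocorticoid receptor gene Nr3c1, and the series design names that line GR(i)skm-/-. All 8 carried the strain label C57/Bl6J. Age, sex, treatment and the driver of the deletion are not given in those labels. The comparison asks which of these transcripts differ in muscle when the receptor gene is disrupted.

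Muscle makes superoxide and hydrogen peroxide as by-products of respiration and contraction. Superoxide dismutases turn superoxide into hydrogen peroxide, and catalase, glutathione peroxidases and peroxiredoxins remove the peroxide. Glutathione, the small thiol that glutathione peroxidases spend, is made by glutamate-cysteine ligase followed by glutathione synthetase and is restored with NADPH. The transcription factor Nrf2 (gene Nfe2l2), held down by Keap1, is known to raise several of these genes through the antioxidant response element.

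The deposited values are MAS5 signals, which measure probe set brightness on a linear scale after every array was brought to a common mean. Before the members, the arrays themselves need a description. The targeted gene was lower in the GR KO group at probe set 1460303_at, with signals of 377, 307, 307 and 352 on the control arrays and 134, 79, 76 and 94 on the GR KO arrays (log2 fold change -1.84 ± 0.20 SE, limma adjusted p = 0.0240). Nr3c1 has 6 probe sets on the array. At 1457635_s_at the log2 fold change was -1.96 ± 0.25 (SE; limma adjusted p = 0.0354), at 1421867_at, 1453860_s_at and 1421866_at it was -1.07, -0.32 and -0.38 with a limma adjusted p of 0.963 each, and 1431378_at was too dim to test. The calls were not stable: that at 1460303_at was lost in 8 of 18 alternatives, 5 of them among the 8 fits with an array left out, and that at 1457635_s_at in 11 of 18. The values at 1460303_at stayed between -2.02 and -1.74.

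Control replicate 4 stood apart. Its spike-in controls had a mean log2 signal of 10.49, against 8.83 to 9.43 on the other 7 arrays, and its median signal was 26, against 18 to 24. Its slow-fibre markers (9 of 9 on the array) had the lowest summed signal, 7757, against 13020 to 25470 on the other controls and 15599 to 18729 on the GR KO arrays. Of 10 fast-fibre markers, all but Myh2 lay near one level within an array, at 22173 to 31176 on control replicate 4 and 11336 to 15414 on control replicate 1, while Myh2 was 5801 on control replicate 4 and 6317 to 7798 on the other controls. The fast-fibre sum, from 104210 to 248485 on control and from 95996 to 152676 on GR KO arrays, follows those bright probe sets and is not read as fibre content. Of the 20 member probe sets above the filter, control replicate 4 had the lowest signal of all 8 arrays at 6 and the highest at 3, whereas every other array was extreme at 1 to 6. The deviations of GR KO replicate 1 from its group and of control replicate 4 from its own correlated at 0.56. This was across the 22518 probe sets tested, which are not independent. The slow-fibre sum of GR KO replicate 1, 18729, was not low in its group, being close to 18494 and 17783 on GR KO replicates 2 and 3. Without control replicate 4 the log2 fold change turned its sign or moved by over 1.5 times at 11 of the 20 member probe sets, and without GR KO replicate 1 at 8. The part of these array differences in the results was not tested.

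Upstream sequence is shown for the member whose groups did not overlap, Gpx3, and for the members whose upstream window shares a searched motif with it or holds the antioxidant response element. The sequences are the 250 bases before the annotated start in RefSeq, build GRCm38.p6, written 5′ to 3′ on the gene's strand. Capitals mark a glucocorticoid receptor hexamer, AGAACA or its reverse complement TGTTCT, or the core of the antioxidant response element, TGACNNNGC or GCNNNGTCA.
Gpx3, chr11:54902604-54902853, plus strand: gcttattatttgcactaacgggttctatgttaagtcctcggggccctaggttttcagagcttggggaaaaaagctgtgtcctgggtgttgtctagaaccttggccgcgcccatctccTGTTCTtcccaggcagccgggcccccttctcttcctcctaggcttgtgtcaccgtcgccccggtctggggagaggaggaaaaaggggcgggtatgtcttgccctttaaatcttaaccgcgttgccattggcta
Cat, chr2:103485154-103485403, minus strand: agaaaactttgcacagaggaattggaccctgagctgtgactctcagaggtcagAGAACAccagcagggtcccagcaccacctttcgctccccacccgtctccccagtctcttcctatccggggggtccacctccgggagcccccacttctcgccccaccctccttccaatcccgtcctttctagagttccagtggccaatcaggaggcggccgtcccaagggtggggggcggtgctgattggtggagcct
Gclm, chr3:122245307-122245556, plus strand: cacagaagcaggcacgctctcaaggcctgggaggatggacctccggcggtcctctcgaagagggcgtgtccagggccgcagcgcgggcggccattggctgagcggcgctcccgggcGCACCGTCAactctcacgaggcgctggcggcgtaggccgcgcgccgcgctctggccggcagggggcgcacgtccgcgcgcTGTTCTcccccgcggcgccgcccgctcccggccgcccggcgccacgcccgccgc
Sod1, chr16:90220512-90220761, plus strand: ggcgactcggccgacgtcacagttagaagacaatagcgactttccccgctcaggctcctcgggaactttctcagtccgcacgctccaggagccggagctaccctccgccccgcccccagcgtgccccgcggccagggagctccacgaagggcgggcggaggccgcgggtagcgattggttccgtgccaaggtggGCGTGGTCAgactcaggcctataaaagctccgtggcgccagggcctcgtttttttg

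RefSeq windows were found for 9 of the 10 genes, 12 windows in all, and Gclc had none in the table. The receptor hexamer was present in the windows of Gpx3, Cat and Gclm, at 133, 197 and 54 bases before the start. Searched on both strands over the same 250 bases, it was present in 16.1% of all 32851 windows. The antioxidant response element core was present upstream of Gclm and Sod1, and in 10.2% of all windows. The complete glucocorticoid response element, AGAACA and TGTTCT with any 3 bases between them, which contains the hexamer at each end, was in 0 member windows and in 0.00913% of all windows. The E-box CACGTG was in 0 member windows and 6.02% of all windows. These matches describe letters in a short window and say nothing of binding.

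Gpx3 was the single member that separated the groups. Gpx3 encodes the glutathione peroxidase that is secreted into plasma, a selenoprotein like Gpx1 and Gpx4. Its probe set 1449106_at gave signals of 6330, 5971, 5582 and 7082 on the 4 control arrays and 2914, 4325, 4803 and 3805 on the 4 GR KO arrays. All 4 GR KO signals lay below all 4 control signals, and the lowest of them was GR KO replicate 1. The means were 6241 ± 638 and 3962 ± 809 (SD, n = 4 per group). The log2 fold change, GR KO minus control, was -0.67 ± 0.17 (SE), or 1.60-fold lower, with a 95% interval of -1.04 to -0.30. In limma over all 22518 probe sets the unadjusted p was 0.00206 and the adjusted p 0.963, so the difference did not pass the threshold of 0.05.

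The Gpx3 difference did not rest on 1 array. With each array left out in turn the log2 fold change lay between -0.78 and -0.53, and it was -0.61 without control replicate 4 and -0.53 without GR KO replicate 1. It kept an unadjusted p under 0.05 in each alternative processing that was tried, yet none of these brought the adjusted p under 0.05, the range being 0.052 to 1. A muscle sample holds more than fibres, and in such bulk RNA fewer cells of a type and less RNA per cell cannot be told apart. Adipocyte markers, of which 5 of 7 were matched, had summed signals of 2233 to 5547 on control and 2138 to 3683 on GR KO arrays, dominated by Fabp4. The other matched adipocyte genes were dim. Lep was at or under a signal of 4 on all 8 arrays and Cidec was at 6 to 13. Adipoq had 19 to 87 on control and 19 to 59 on GR KO arrays, and Retn had 16 to 38 and 23 to 43. Endothelial markers, 10 of 10, summed to 2998 to 3857 on control and 3976 to 5843 on GR KO arrays. These sums went in the opposite direction to Gpx3 and did not overlap, by a narrow margin. Of these genes 9 were higher and 1 was lower in GR KO muscle. Their mean log2 signal, with each gene centred over the 8 arrays, did overlap: -0.101 on GR KO replicate 2 and -0.052 on control replicate 3. The sums of the other 7 marker lists overlapped between the groups. The part of any of these cells in the Gpx3 difference was not tested.

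**Figure D1:**
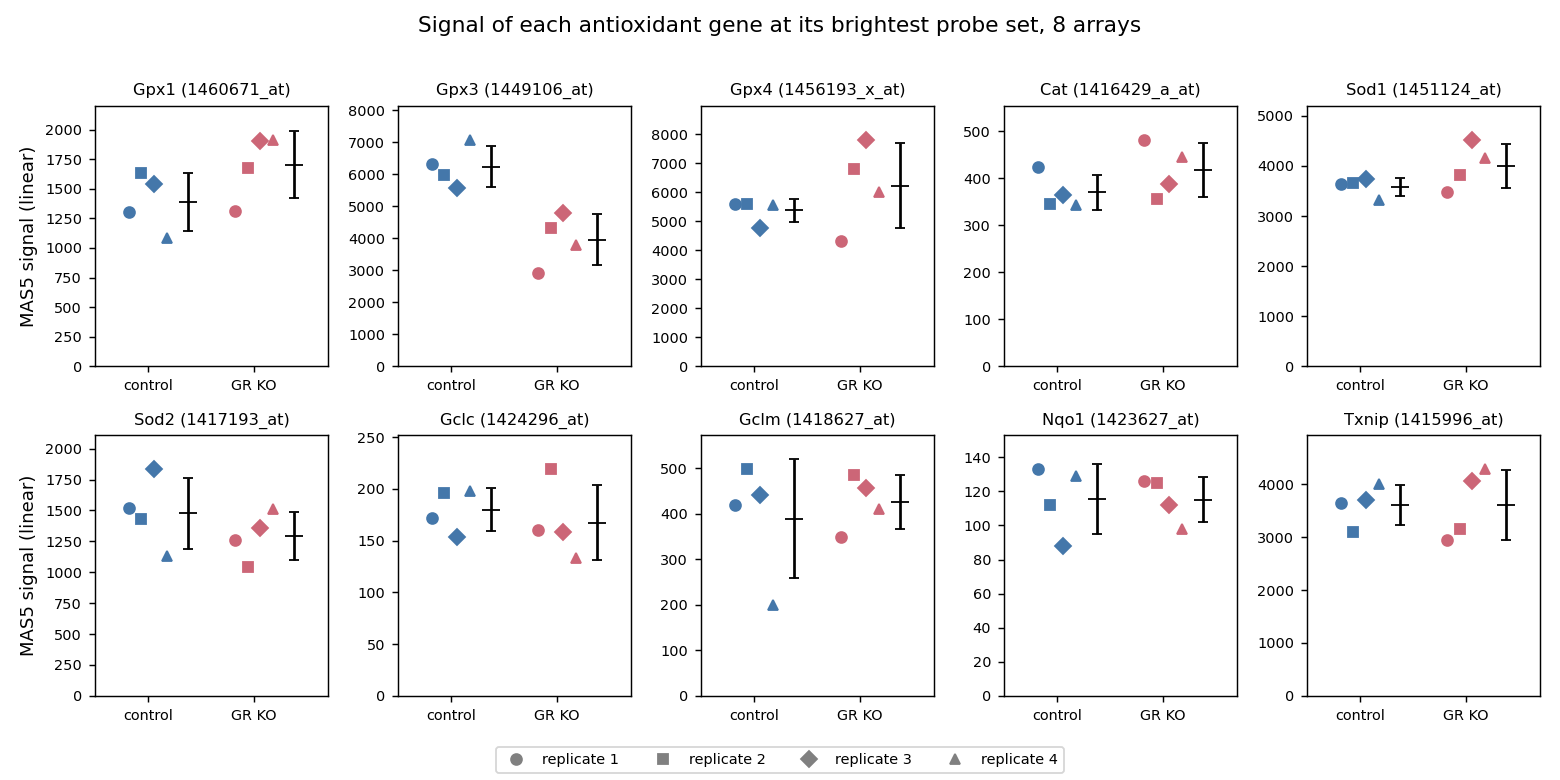
MAS5 signal (linear axis from 0) of each of the 10 genes at its brightest probe set on 4 control (blue) and 4 GR KO (red) arrays, with replicates by symbol and the group mean ± SD as a black bar. Gpx3 is the single panel in which the groups do not overlap (5582 to 7082 against 2914 to 4803), and control replicate 4 lies far below the other controls for Gclm.

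The other glutathione peroxidases had higher group means in GR KO muscle, and neither separated the groups. Gpx1, the abundant intracellular glutathione peroxidase, had signals of 1303, 1629, 1542 and 1085 on control and 1312, 1674, 1907 and 1914 on GR KO arrays. Its log2 fold change was 0.29 ± 0.17 (SE; 95% interval -0.09 to 0.68; limma adjusted p = 0.963). Control replicate 4 was its lowest array, and without it the value was 0.18. Gpx4, which reduces lipid hydroperoxides within membranes, had signals of 5584, 5609, 4779 and 5550 on control and 4315, 6790, 7814 and 6006 on GR KO arrays at 1456193_x_at. The GR KO arrays spread on both sides of the controls there, with GR KO replicate 1 lowest and GR KO replicate 3 highest. The log2 fold change was 0.18 ± 0.18 (SE), and at its other probe set, 1451695_a_at, 0.22 ± 0.16. The 95% intervals of the Gpx4 probe sets ended at 0.58 at the upper side.

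GR KO replicate 1 had the lowest GR KO signal for all of these peroxidases. Without that array the log2 fold changes were 0.41 for Gpx1 and 0.35 and 0.37 for Gpx4. Each had an unadjusted p under 0.05 in limma, with adjusted p-values of 0.571 to 0.573. A rise follows from leaving out the lowest GR KO array, so these p-values add no separate support. The Gpx3 value was -0.53 in the same fit without GR KO replicate 1. In it, 5 member probe sets had an unadjusted p under 0.05 against 1 with all arrays, among 1912 and 844 of the 22518 probe sets. In each fit 0 members passed the adjusted threshold.

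Catalase, the peroxisomal enzyme that splits hydrogen peroxide, did not differ beyond its spread. At its brighter probe set, 1416429_a_at, Cat had signals of 425, 346, 365 and 343 on control and 482, 355, 387 and 445 on GR KO arrays (log2 fold change 0.17 ± 0.15 SE; 95% interval -0.15 to 0.49; limma adjusted p = 0.963). The groups overlapped over most of their range. The second probe set, 1416430_at, had -0.03 ± 0.24, a value whose sign changed under quantile normalization and median centring.

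Neither dismutase passed the test, and the tested Sod1 probe sets were of mixed sign. Sod1, the cytosolic copper-zinc enzyme, had signals of 3639, 3654, 3733 and 3319 on control and 3485, 3819, 4524 and 4165 on GR KO arrays at 1451124_at. Its log2 fold change of 0.15 ± 0.13 (SE) had a 95% interval of -0.13 to 0.43, and the control arrays were close together while GR KO replicate 3 was the highest. The other Sod1 probe sets above the filter had log2 fold changes of -0.01, 0.08 and 0.02, each of which changed sign under at least 1 scaling or weighting, and 1447761_x_at was dim, with signals of 2 to 10.

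Sod2, the manganese enzyme of the mitochondrial matrix, was on the low side in GR KO muscle at all 4 of its probe sets. At 1417193_at its signals were 1516, 1427, 1833 and 1132 on control and 1262, 1045, 1358 and 1511 on GR KO arrays. The log2 fold changes were -0.18 ± 0.17 at that probe set (-0.30 without control replicate 4), -0.24 ± 0.14 at 1448610_a_at, -0.34 ± 0.16 at 1454976_at and -0.36 ± 0.30 at 1417194_at (SE). Probe sets of a gene read the same RNA and are not replicates, and each pair of groups overlapped. The smallest unadjusted p was 0.0569, at 1454976_at, where the control signals were 474, 479, 503 and 423 and the GR KO signals 434, 282, 359 and 425. There control replicate 4 lay below 2 of the GR KO arrays, and the limma adjusted p was 0.963.

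The subunits of glutamate-cysteine ligase, the first enzyme of glutathione synthesis, did not differ beyond their spread. Gclc, the catalytic subunit, had signals of 172, 196, 154 and 198 on control and 160, 219, 158 and 133 on GR KO arrays at 1424296_at (log2 fold change -0.12 ± 0.18 SE, and -0.07 without control replicate 4; 95% interval -0.52 to 0.28). GR KO replicate 2 was above every control and GR KO replicate 4 below every control. At the second Gclc probe set, 1455959_s_at, the signals were 86, 35, 62 and 140 on control and 82, 40, 49 and 41 on GR KO arrays. This was the widest range of any member above the filter, 4-fold from the lowest to the highest array, and the log2 fold change of -0.50 ± 0.39 was -0.17 without control replicate 4.

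Gclm, the modifier subunit that raises the activity of Gclc, depended on the same array. Its signals at 1418627_at were 420, 498, 441 and 199 on control and 350, 485, 457 and 410 on GR KO arrays. Control replicate 4 was under all the others, and the remaining control arrays lay within the upper part of the GR KO range or above it. The log2 fold change was 0.20 ± 0.26 (SE) with all arrays and -0.10 without control replicate 4, so its direction at this probe set was set by that array. The second Gclm probe set, 1439050_at, was below the filter, with signals of 9 to 29. In the fit without the filter its log2 fold change was -0.41 ± 0.41 (SE). When the Gclm probe sets were averaged, the value with all arrays was -0.10 ± 0.185 (SE; limma adjusted p = 0.947).

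Nqo1, a quinone reductase and a standard readout of Nrf2 activity, had nearly equal group means of 116 ± 20.5 and 115 ± 13.2 (SD, n = 4). Its signals were 133, 112, 88 and 129 on control and 126, 125, 112 and 98 on GR KO arrays. The log2 fold change was 0.01 ± 0.18 (SE), and 0.07 without control replicate 4, and its 95% interval of -0.40 to 0.41 spans changes from 0.76-fold to 1.33-fold.

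Txnip, which binds thioredoxin and also restrains glucose uptake, gave different values at its probe sets. At 1415996_at its signals were 3646, 3097, 3697 and 4006 on control and 2948, 3153, 4057 and 4285 on GR KO arrays, and the log2 fold change was -0.01 ± 0.16 (SE; 95% interval -0.36 to 0.33). The GR KO arrays covered the whole control range. At 1415997_at the signals were 997, 673, 1329 and 1165 on control and 770, 521, 679 and 1314 on GR KO arrays, with a log2 fold change of -0.38 ± 0.28 and a 95% interval of -1.01 to 0.24.

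**Figure D2:**
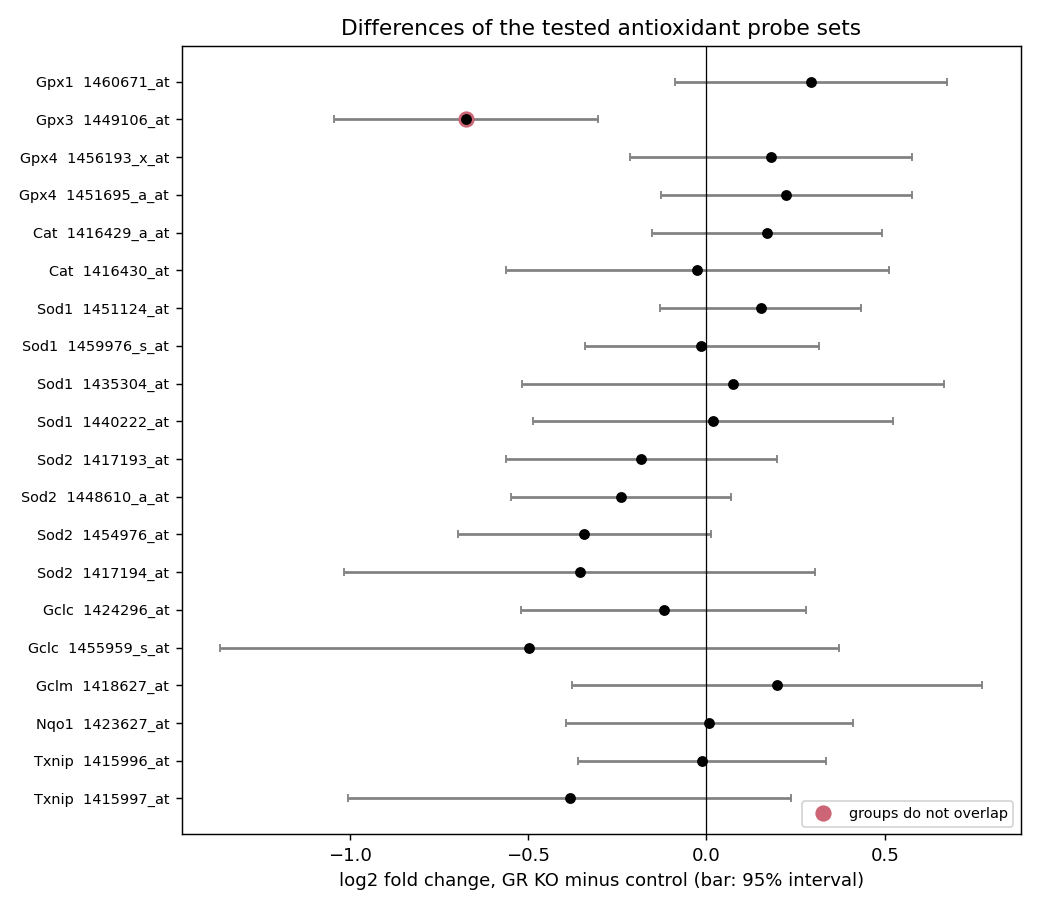
Log2 fold change of the 20 tested member probe sets, GR KO minus control, with 95% intervals from limma. The larger red point marks the groups that do not overlap. The Gpx3 interval, -1.04 to -0.30, is the single one that does not include 0.

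As a list, the 10 genes showed no shift in 1 direction. Of the 20 that were bright enough to be tested, 9 had a log2 fold change above 0 and 11 below, or 45% and 55% where all probe sets gave 47.8% and 52.2%, and their median was -0.01, the same as the median of -0.01 over all 22518 probe sets tested. After adjustment 0 members passed, where 0.0222% of all probe sets did (5, all lower in GR KO muscle). At an unadjusted p under 0.05 there was 1 member probe set of 20, Gpx3, against 3.75% of all probe sets. Groups did not overlap for 1 of 20 as well, against 2.19% of all probe sets (1.21% on the lower side). A single probe set of 20 is near those background shares. Of the 20 intervals, 16 lay within a 2-fold change in either direction. For the 6 genes with more than 1 tested probe set, all values were above 0 for Gpx4, all below 0 for Sod2, Gclc and Txnip, and of mixed sign for Cat and Sod1.

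**Figure D3:**
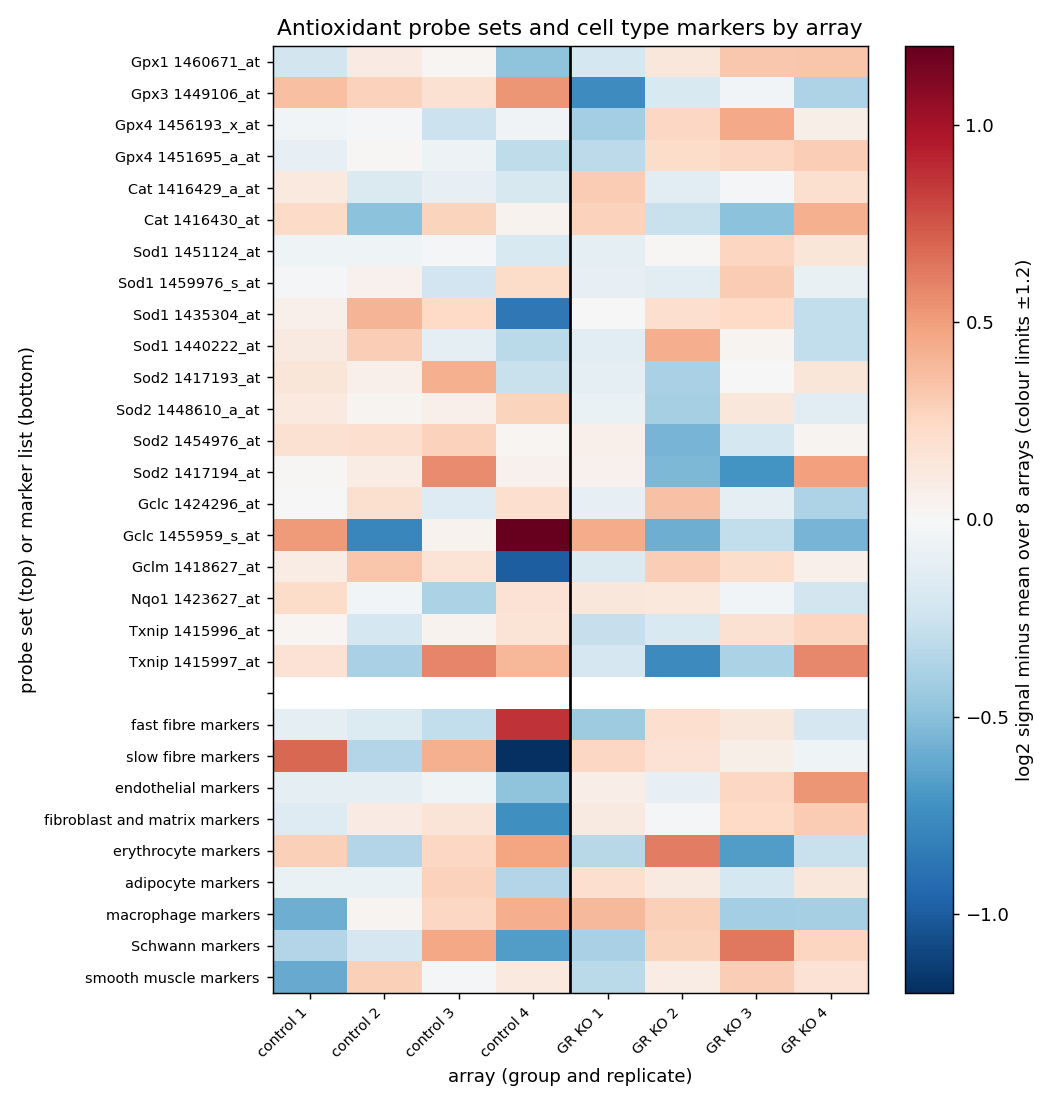
Log2 signal of each tested member probe set minus its mean over the 8 arrays (upper rows, colour scale limited to ±1.2), and the mean of the same quantity over each marker list (lower rows), by array. Control replicate 4 has the strongest colours for Gclc at 1455959_s_at, Gclm and the fast- and slow-fibre markers, while Gpx3 is red on all 4 control and blue on all 4 GR KO arrays.

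By the rule for likeness of pattern, the member with the widest range, Gclc at 1455959_s_at, was compared with the brightest probe set of each of 11062 genes. The measure was the root mean square difference of log2 signals, each centred on its own mean over the 8 arrays. The nearest were Ptch1, the hedgehog receptor (0.12), Rrm2b, a ribonucleotide reductase subunit (0.13), and the formin Fmnl2 (0.13). All of them were highest on control replicate 4, as Gclc was there. For Gpx3, which was chosen for this after its values had been seen, the nearest were Jup, encoding plakoglobin (0.14), Tango2 (0.18) and Cuedc1 (0.19), with log2 fold changes of -0.54, -0.60 and -0.42. The genes near Gclc and near Gpx3 were picked by likeness over these same 8 arrays, so the features they share with them follow from the choice.

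The wider pathway was described with 9 lists holding 119 genes, of which 105 had a probe set above the filter. Of their 175 probe sets, 92 had a log2 fold change above 0 and 83 below, 0 passed after adjustment, and 11 had an unadjusted p under 0.05 (4 higher and 7 lower in GR KO muscle), or 6.29% against 3.75% of all probe sets (1.68% higher and 2.07% lower). Groups did not overlap for 4, or 2.29% against 2.19% of all probe sets (0.981% on the higher side). These were Arrdc2 on the lower side and Gstt1, Gstt3 and Scly on the higher side. Gstt3 (log2 fold change 0.32) and Scly (0.26), which releases selenium from selenocysteine, were named after their values were seen.

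**Figure D4:**
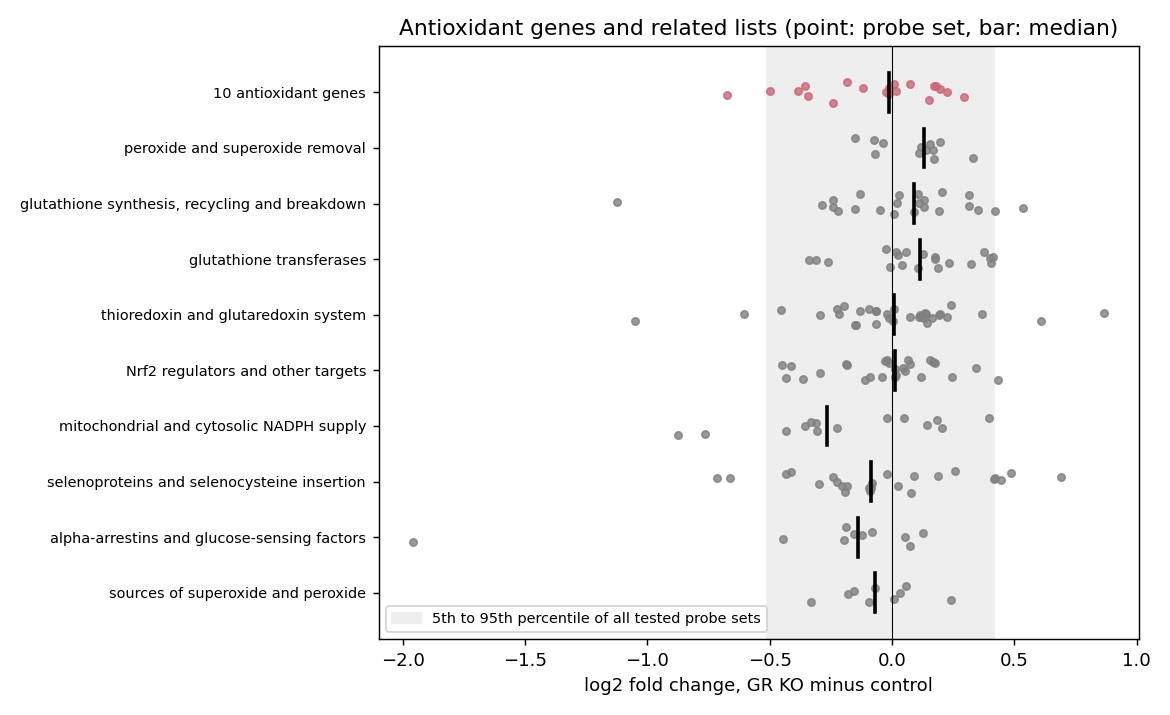
Log2 fold change, GR KO minus control, of every tested probe set (points, jittered vertically) in the 10 antioxidant genes (red) and the 9 related lists (grey), with list medians as black bars and the 5th to 95th percentile of all tested probe sets shaded (-0.51 to 0.42). Most points of every list lie in the shaded band. Points to its left include Gpx3 (-0.67), Arrdc2 (-1.96), Chac1 (-1.12) and Nnt (-0.87). Points to its right include Selenos (0.69), Txnrd1 (0.61) and Hagh (0.54).

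For other enzymes that remove peroxide and superoxide, of 12 probe sets of 8 genes, 8 had a log2 fold change above 0 and 0 had an unadjusted p under 0.05 in limma or passed after adjustment, with a median of 0.13. The smallest p-values belonged to the cytosolic peroxiredoxin Prdx2 (log2 fold change 0.33, and 0.06 without control replicate 4), the mitochondrial peroxiredoxin Prdx3 (-0.15) and the endoplasmic reticulum peroxidase Gpx7 (0.17, and 0.02 without that array). Prdx2 had 0.15 at its other probe set, and 0.06 there without control replicate 4. Glutathione transferases, 20 probe sets of 16 genes, had 15 above 0 and a median of 0.12. Gstt1 had signals of 105, 111, 110 and 100 on control and 117, 135, 155 and 160 on GR KO arrays, a log2 fold change of 0.40 ± 0.16 (SE; limma adjusted p = 0.963). Gstm4 had 0.40 and Gstt2 -0.34.

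In the list of glutathione synthesis, recycling and breakdown, 15 of 23 probe sets were above 0 with a median of 0.09. Chac1, which cleaves glutathione, was the lowest. Its signals were 1453, 1366, 608 and 1121 on control and 408, 705, 355 and 587 on GR KO arrays, a log2 fold change of -1.12 ± 0.29 (SE; limma adjusted p = 0.963), and control replicate 3 overlapped the GR KO range. Hagh, a glyoxalase that releases glutathione from its lactoyl conjugate, had 0.54 at 1 probe set and 0.13 and 0.03 at the others. Glutathione synthetase, Gss, had 0.42 and 0.31. Without control replicate 4 these values were 0.33, 0.03 and -0.02 for Hagh and 0.47 and 0.12 for Gss.

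The NADPH list had the lowest median, -0.27 over 14 probe sets of 8 genes, with 9 of them below 0. Nnt, the mitochondrial transhydrogenase that makes NADPH, had signals of 269, 184, 247 and 235 on control and 188, 100, 114 and 119 on GR KO arrays at 1416105_at. GR KO replicate 1 lay just above the lowest control, and the log2 fold change was -0.87 ± 0.21 (SE; limma adjusted p = 0.963), with -0.31 at a second probe set. C57BL/6J mice are known to carry a deletion within Nnt, and the position of these probe sets relative to it was not analysed here. The mitochondrial folate enzyme Mthfd2 had -0.76 and -0.36 at its probe sets, and the mitochondrial NAD kinase Nadk2 had -0.43.

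Among Nrf2 regulators and other targets, 14 of 27 probe sets were above 0 and the median was 0.01. Keap1, the adaptor that holds Nrf2 for degradation, had signals of 384, 482, 453 and 429 on control and 413, 337, 364 and 259 on GR KO arrays at 1450746_at, a log2 fold change of -0.36 ± 0.16 (SE; limma adjusted p = 0.963), and 0.02 ± 0.32 at its other probe set (-0.07 without control replicate 4). Malic enzyme Me1, a source of cytosolic NADPH, had -0.45 and -0.43.

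The thioredoxin and glutaredoxin list had 18 of 34 probe sets above 0 and a median of 0.01. The methionine sulfoxide reductase Msrb3 had log2 fold changes of -1.05 and -0.60 (-0.88 and -0.38 without control replicate 4). The thioredoxin reductase Txnrd1 had 0.61 at its dimmest probe set and -0.13 and 0.37 at the others, which were 0.69, -0.25 and -0.01 without control replicate 4. Among selenoproteins and the factors that insert selenocysteine, 10 of 26 probe sets were above 0 and the median was -0.09. Selenos, a selenoprotein of the endoplasmic reticulum membrane, had 0.42, 0.42 and 0.69 at its probe sets, the last 0.33 without control replicate 4. Its 1448704_s_at signals were 709, 640, 517 and 572 on control and 697, 943, 894 and 722 on GR KO arrays. Selenot, named after its values were seen, had -0.43, -0.72 and -0.66. These were -0.10, -0.22 and -1.07 without control replicate 4.

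Txnip is an alpha-arrestin, and its relatives gave the largest value of the wider lists. Arrdc2 had signals of 233, 133, 266 and 504 on control and 55, 79, 81 and 52 on GR KO arrays, a log2 fold change of -1.96 ± 0.35 (SE; limma adjusted p = 0.236). All 4 GR KO arrays lay below the controls. Arrdc4 had -0.44 and -0.08 and the glucose-sensing factor Mlxip -0.19 (-0.31 without control replicate 4). The list had 3 of 10 probe sets above 0 and a median of -0.14. Sources of superoxide and peroxide had 4 of 9 probe sets above 0 and a median of -0.07. The smallest p-values were those of the NADPH oxidase subunits Cyba (0.24, and 0.48 without control replicate 4) and Cybb (-0.33) and of monoamine oxidase Maoa (-0.18, and -0.34 without it). At their other tested probe sets Cybb had -0.16 (0.12 without control replicate 4) and Maoa had 0.01 (-0.05 without it).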

How the data were processed

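Total RNA of 8 muscles was labelled with biotin and hybridised to 1 Affymetrix array each, per the labels' protocols. The authors deposited MAS5 signals, which are linear intensities, per the submitters' processing notes. For MAS5, the version and the scaling target were not given in the sources used here. The trimmed mean signal, leaving out 2% at each end, was 99.96 on all 8 arrays. The number of arrays limits the precision.

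A value of 0 was replaced by its array's smallest signal above 0, and log2 was taken with no pseudocount. Probe sets with a mean log2 signal above the median (a signal of 19.4) were tested, 22518 of 45037, with limma 3.58.1 in R 4.3.3 (lmFit, eBayes with trend, group as the single term, two-sided, Benjamini-Hochberg over all, threshold 0.05). Two-sided 95% intervals are from the same fit. Signals of a group are mean ± SD and errors of log2 fold changes are SE. Whether each muscle came from its own animal is not in the labels; the p-values reflect only how these samples vary, which may be technical. Figures used Python 3.11.15. The fit was tested on simulated data with the spread of these 22518 probe sets: it called 4.9% of those given a log2 change of 0.58, 29.9% of those given 1.00, 60.1% for 1.50 and 78% for 2.00. False calls made up 5.26%. The simulated noise was drawn independently for each probe set, without deviations shared across an array.

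The members and the gene lists were chosen with earlier results of these data known. Named genes were all members, the probe sets of each list past the threshold or else up to 3 with the smallest p and up to 6 with an unadjusted p under 0.05, the 3 genes nearest in pattern to the member with the widest range, and Nr3c1. Alternatives changed the normalization, pseudocount (2 or 6), filter (none or the 70th percentile), probe set summary, eBayes prior, array weights or replicate block, or left out each array.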

Additional observations from a re-analysis of the deposited data

Results flagged for a closer look

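In 4 of 40 sets of 4 arrays (20 member probe sets in 2 groups), 1 array stood farther from the rest of its group than Dixon's 95% critical value for 4 samples allows, where chance flags about 1 in 20 sets. For Gpx4 at 1456193_x_at, control replicate 3 had a signal of 4779 while the other controls lay between 5550 and 5609. For Gpx4 at 1451695_a_at, GR KO replicate 1 had 2547 against 3705 to 3891 on the other GR KO arrays. For Sod1 at 1459976_s_at, GR KO replicate 3 had 2177 against 1604 to 1658. For Sod2 at 1417194_at, control replicate 3 had 56 against 38 to 40. These are 3 different arrays, and control replicate 4 is not among them.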

How the results depend on the processing

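The count of member probe sets past an adjusted p of 0.05 was 0 in limma under every alternative run, with 1 to 5 at an unadjusted p under 0.05, and so was the count in the pathway lists, with 4 to 21. The count over all probe sets was 5, and it was 3 after quantile normalization, 0 without the filter (1944 at an unadjusted p under 0.05), 1 when a gene's probe sets were averaged, 1 without trend, 10 with array weights and 0 to 5 with single arrays left out (470 to 1912 at an unadjusted p under 0.05). The cause of these changes was not tested. With the replicate block it was 0 (753 at an unadjusted p under 0.05). Whether the numbers pair the arrays was not settled. The deviations of same-numbered arrays correlated at -0.12, 0.11, 0.09 and -0.38, and not every array correlated best with its own number. These correlations cannot decide it, since single arrays that stood apart enter them as well.

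Of the 20 member probe sets, 13 kept their sign under every alternative in which they were tested, Gpx3 among them (-0.78 to -0.53). The fit on averages over a gene's probe sets is not in this count, and Gclm had -0.10 there. The sign of values near 0 turned for Txnip at 1415996_at (0.019 with median centring, 0.083 with array weights), Cat at 1416430_at (0.0025 with quantile normalization, 0.0060 with median centring) and Sod1 with array weights (-0.090 at 1435304_at, -0.045 at 1440222_at, 0.081 at 1459976_s_at, the last also 0.018 with median centring). With single arrays left out the ranges were -0.10 to 0.079 for Txnip, -0.19 to 0.13 for Cat, -0.10 to 0.34 for Gclm, -0.12 to 0.08 for Nqo1, and -0.20 to 0.22, -0.12 to 0.12 and -0.12 to 0.058 for these Sod1 probe sets. Without control replicate 4 the sign turned for 5 probe sets: Gclm, Txnip at 1415996_at and the 3 of Sod1. In simulated data 29.9% of changes of 1 and 60.1% of 1.5 on the log2 scale were called, so changes of 2-fold and more could be missed too. Those rates are averages over all probe sets tested, whose median SE was 0.238 against 0.177 for the members. The simulated noise also lacked the deviations that an array shares across probe sets.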
